A study of Mus musculus with 4 samples.

Results

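The genes described here are 39 mouse genes for the thin filament, titin, the Z-disc and neighbouring parts of the striated muscle sarcomere, the repeating contractile unit of a muscle fibre. They were taken as the array probes, control spots left out, whose gene name in the array files is one of the 39 names, and they make up 39 of the 31896 gene names on the array. Of these genes, 16 belong to the thin filament, 8 to the Z-disc and 4 to titin and the M-band. The list is wider than a name of thin filament, titin and Z-disc says, because it also holds 9 genes for myosin light chains, their kinase and myosin binding proteins, as well as the intermediate filament gene Des and the muscle creatine kinase gene Ckm. By the isoform they encode, 8 are slow, 10 are fast and 3 are embryonic or cardiac.

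The samples are mouse 3D engineered muscles, skeletal muscle tissue grown in culture, which either received EPS for 30 min or served as unstimulated controls. The labels write EPS out as "electrical plus stimulation", taken here as electrical pulse stimulation, which is used to make cultured muscle contract. Total RNA was measured on 4 one-colour arrays of 1 slide, with 1 array for each of 4 groups. Unstimulated tissue was sampled at 0 min and at 5 h, and stimulated tissue directly after the 30 min of EPS (0 min) and 5 h later. The labels give no genotype, strain, age or cell source, no number of tissues per RNA sample, and no oxygen condition, although the series title names hypoxia. With 1 array a group there is no spread between tissues and no test, so the values below describe these 4 arrays.

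In the sarcomere, thin filaments of actin carry tropomyosin and the troponin complex, whose C subunit binds calcium, whose I subunit inhibits and whose T subunit ties the complex to tropomyosin. The filaments are anchored in the Z-disc, which is built around alpha-actinin, while the giant protein titin runs from the Z-disc to the M-band in the middle of the sarcomere. Developing skeletal muscle makes cardiac and embryonic forms of actin, troponin T and light chain together with slow and fast forms, and the balance shifts as fibres mature.

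Each level below is a processed signal in log2, less the 75th percentile of its array in log2, and a difference is a level minus another level of the same probe. All 39 genes and all 54 of their probes were well above background on all 4 arrays, and no spot was saturated. The 75th percentiles were 1362.5, 1280.3, 1093.0 and 1491.9, and 60.1% to 60.9% of gene names were well above background on an array. For probes printed 10 times, differences of single spots scattered with a standard deviation whose median was 0.08 in each of the 4 comparisons and whose 95th percentile was 0.26 to 0.33. For the 51 brightest of them, with a level of at least 2, the median was 0.06 to 0.07 and the 95th percentile 0.10 to 0.11. Skeletal fibre markers such as Myh3, Myog and Casq1 were all 12 well above background on all 4 arrays. In the labels the protocol for dye labelling speaks of leukocyte RNA, whereas titles and tissue say muscle. The leukocyte antigen gene Ptprc was above background on none of the arrays, and 4 of 7 leukocyte markers were above it on all 4.

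The probes were 60 bases long, and their sequences show which transcript and which part of it a value reads. Genes of a sarcomere family resemble each other over long coding stretches, and Ttn and Neb, which encode titin and nebulin, are too long for 1 probe to stand for the whole transcript. The probes below all held an open reading frame and are written 5′ to 3′ as in the array design, with positions on build mm9. The first pair reads fast skeletal troponin T (Tnnt3, plus strand), at chr7:149698467-149698526 and, across an intron, at chr7:149698500-149700262. The capitals mark the 27 bases these probes share, so they are not independent readings.
Tnnt3 upstream probe: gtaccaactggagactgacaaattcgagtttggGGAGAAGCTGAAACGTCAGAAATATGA
Tnnt3 junction probe: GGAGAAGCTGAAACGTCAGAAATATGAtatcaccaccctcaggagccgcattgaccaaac

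The next probes carry no capitals and read well separated parts of the same gene, which is why they are shown. Nebulin (Neb, minus strand) was read at chr2:52097549-52097608 and, nearer the 3′ end, at chr2:51992837-51992896. Titin (Ttn, minus strand) was read, from 5′ to 3′, at chr2:76802542-76802601, chr2:76655847-76655906 and chr2:76551742-76551801, besides a further probe 9.67 kb past the last of these. The tropomyosin gene Tpm3 (plus strand) was read inside the gene at chr3:89877669-89877728, and by a probe 26.8 kb downstream.
Neb 5′ probe: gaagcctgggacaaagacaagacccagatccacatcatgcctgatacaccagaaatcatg
Neb 3′ probe: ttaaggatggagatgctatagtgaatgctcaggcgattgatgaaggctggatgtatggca
Ttn 5′ probe: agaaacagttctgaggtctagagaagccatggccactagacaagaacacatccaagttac
Ttn middle probe: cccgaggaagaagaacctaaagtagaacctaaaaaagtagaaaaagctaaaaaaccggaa
Ttn 3′ side probe: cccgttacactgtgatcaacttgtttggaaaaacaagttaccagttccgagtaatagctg
Tpm3 internal probe: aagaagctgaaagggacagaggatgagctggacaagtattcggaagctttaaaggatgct

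The largest differences among the 39 genes were between the time points, and they lay in the Z-disc. Myot, Ldb3 and Tcap were lower at 5 h than at 0 min both without EPS and after EPS, by 1.53-fold to 2.45-fold. Levels are given from here on with the unstimulated arrays first (0 min, then 5 h) and the stimulated arrays second (0 min, then 5 h). Myot, which encodes the actin-bundling Z-disc protein myotilin, had levels of 2.82, 1.89, 3.03 and 1.73. Both 0 min arrays were thus above both 5 h arrays, and Myot was 1.90-fold lower at 5 h without EPS and 2.45-fold lower after EPS, ranking 679 from the lowest of 18486 genes and 317 from the lowest of 18468. Ldb3, which encodes the PDZ and LIM domain protein of the Z-disc also called ZASP or Cypher, had levels of 2.24, 1.29, 2.40 and 1.53 at chr14:35340222-35340281. It was again lower on both 5 h arrays, by 1.92-fold without EPS and 1.82-fold after EPS. Tcap, which encodes telethonin, the protein that caps titin at the Z-disc, had levels of 4.93, 4.32, 5.18 and 4.28 at chr11:98246127-98246186. Its difference was 1.53-fold without EPS and 1.86-fold after EPS, both lower at 5 h.

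The other 5 Z-disc genes differed less. Actn2, the alpha-actinin of all striated muscle, had levels of 2.74, 2.46, 2.97 and 2.57, and was lower at 5 h by 0.28 without EPS and by 0.40 after EPS on the log2 scale. Myoz2, the slow fibre calsarcin, which links alpha-actinin to calcineurin, had levels of 3.70, 3.52, 3.86 and 3.56. Myoz3 and Actn3, a myozenin and the fast fibre alpha-actinin, were likewise lower at 5 h in both comparisons. Myoz1 was the exception without EPS, with a difference of 0.05 there and -0.35 after EPS. The median of the 8 Z-disc genes was -0.34 without EPS and -0.44 after EPS, with 7 and all 8 below 0, and it stayed below 0 under quantile normalization, cyclic loess and median scaling.

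**Figure D1:**
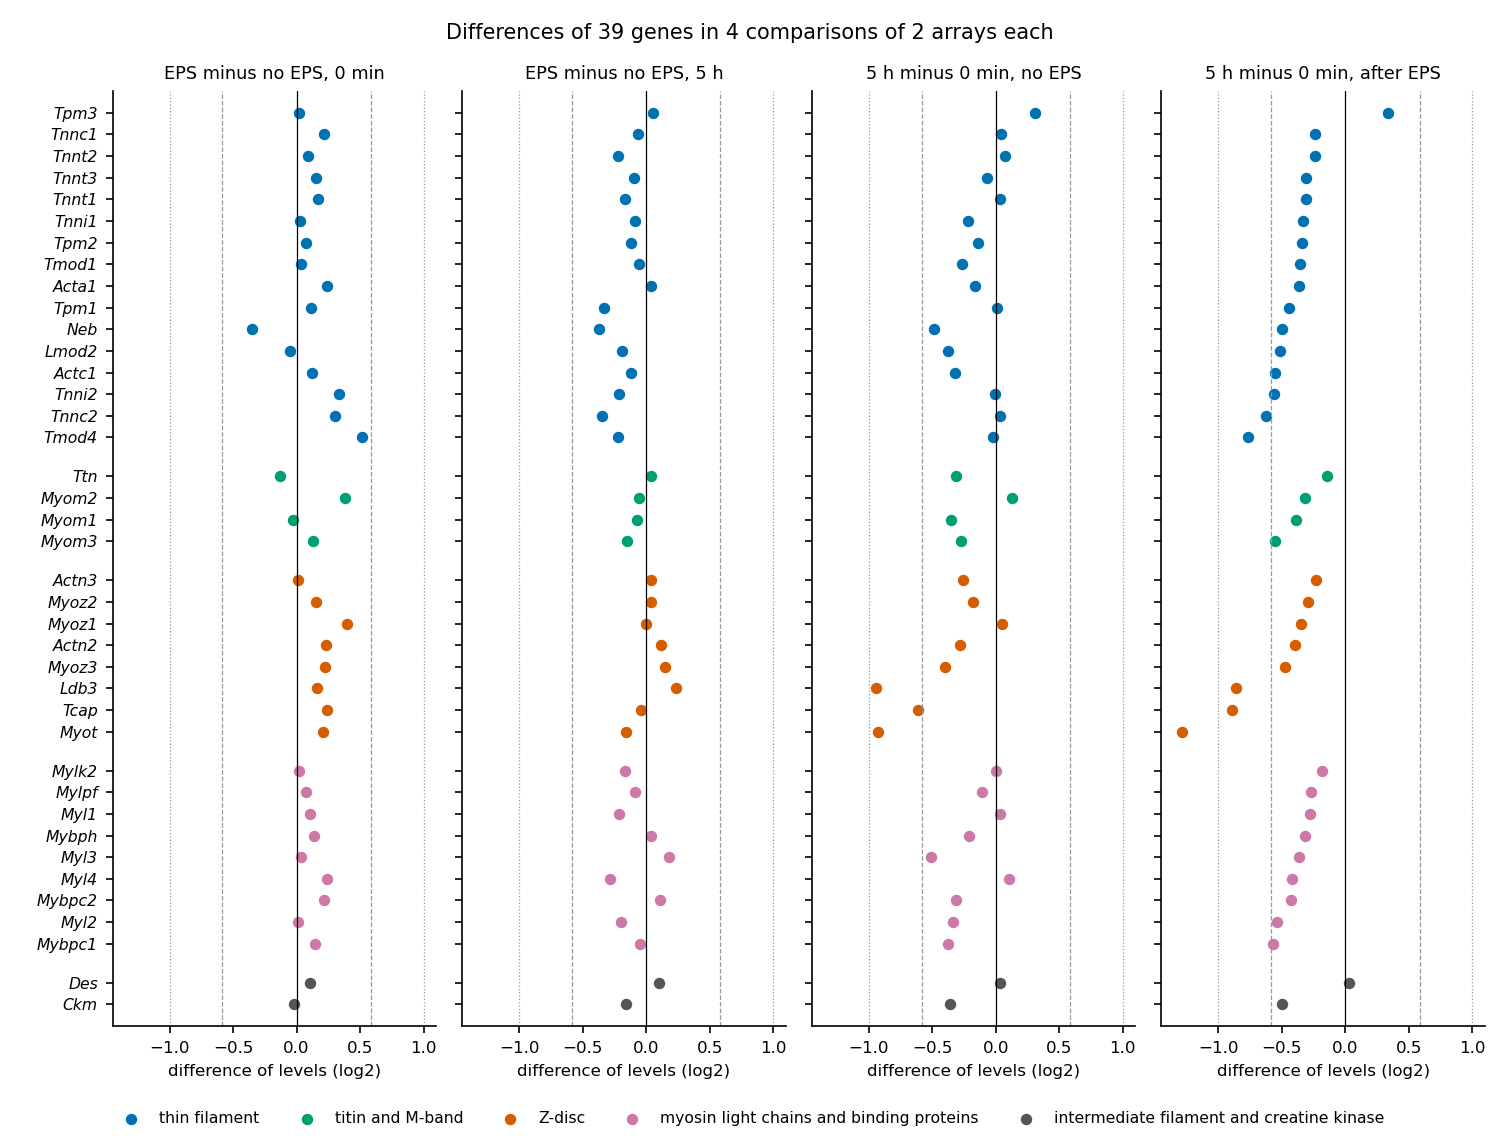
Difference of levels (log2, horizontal axes) of each of the 39 genes in the 4 comparisons, each between 2 arrays; points are genes coloured by role, dashed lines mark 1.5-fold and dotted lines 2-fold. Myot, Ldb3 and Tcap lie farthest to the left at 5 h against 0 min, at -0.93, -0.94 and -0.61 without EPS and -1.29, -0.86 and -0.89 after EPS, and no gene passes 1.5-fold in either EPS comparison.

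Counted over all 39 genes, 0 were at least 2-fold lower at 5 h without EPS, where 2.96% of all genes measured were, and 1 (Myot) after EPS, where 3.64% were. At least 1.5-fold lower were 3 of 39 without EPS, where 9.38% of all genes were, and 5 of 39 after EPS, where 12.5% were. Both shares are close to the background of the whole array. No member was 1.5-fold higher at 5 h. The 3 genes without EPS were Myot, Ldb3 and Tcap, and the 5 after EPS were these and the thin filament genes Tmod4 and Tnnc2. The direction stood farther from that of all genes: 28 of 39 members (71.8%) lay below 0 without EPS, where 52.5% of all genes did, and 37 of 39 (94.9%) after EPS, where 57.5% did. The medians were -0.21 and -0.36 against -0.02 and -0.08 over all genes. In bulk RNA, fewer cells of a type and less RNA per cell cannot be told apart.

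The pair of time comparisons uses 4 different arrays of 1 slide. Below 0 in both were 28 of 39 members (71.8%), against 44.3% of 18107 genes, and above 0 in both were Des and Tpm3. Over the 39 genes the paired differences had a Pearson's r of 0.70 and a Spearman's rho of 0.58, and over all 18107 genes an r of 0.78; these describe the arrays and carry no test. Tpm3, a tropomyosin of slow fibres and of many other cells, was higher at 5 h in both comparisons when read by its brightest probe, with levels of 4.71, 5.02, 4.73 and 5.07. Des, the muscle intermediate filament gene that surrounds the Z-discs, was printed as 10 spots, with levels of 3.81 ± 0.03, 3.84 ± 0.05, 3.92 ± 0.03 and 3.94 ± 0.08 (SD between 10 spots of 1 array). Its differences with time were 0.03 in both comparisons, inside that spread. Ckm, which encodes the enzyme that buffers ATP in muscle, had levels of 1.76, 1.40, 1.74 and 1.24 and was lower at 5 h in both.

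Among the 16 thin filament genes, the length regulators and nebulin lay below 0 with time in both comparisons. Nebulin (Neb) spans the filament like a ruler, and its levels were 3.99, 3.51, 3.64 and 3.14. It was lower at 5 h by 0.48 without EPS and 0.50 after EPS on the log2 scale. Lmod2, which encodes leiomodin, a nucleator and elongation factor at the pointed end, had levels of -0.86, -1.23, -0.91 and -1.42. Tmod1, which encodes the pointed end cap tropomodulin, had levels of 0.62, 0.36, 0.66 and 0.30. All 3 had their 2 lowest levels on the 5 h arrays. Tmod4, the skeletal muscle tropomodulin at chr3:94933056-94933115, had levels of 0.12, 0.10, 0.64 and -0.13. It was high on the array of EPS at 0 min, while its time difference without EPS was only -0.02. The thin filament median was -0.05 without EPS, with 10 of 16 genes below 0, and 0.09 under median scaling, with 7 below 0. After EPS it was -0.36, with 15 of 16 below 0, and it remained below 0 under the other scalings.

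The remaining thin filament genes include the actins and tropomyosins. Skeletal alpha-actin (Acta1) had levels of 7.14, 6.97, 7.37 and 7.01, and cardiac alpha-actin (Actc1), the actin of embryonic muscle, 7.57, 7.25, 7.69 and 7.13. Both were lower at 5 h in both comparisons, Actc1 by 0.32 and 0.56 on the log2 scale. The tropomyosin genes Tpm1 and Tpm2 differed by 0.01 and -0.14 without EPS and by -0.44 and -0.34 after EPS.

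In titin and the M-band, Ttn had levels of 5.88, 5.56, 5.74 and 5.60 at its brightest probe. The myomesins crosslink thick filaments in the M-band. Myom1 had levels of 2.70, 2.35, 2.67 and 2.28, and Myom3 of 4.51, 4.23, 4.64 and 4.08, both lower at 5 h with or without EPS. Myom2 went the other way without EPS, with levels of 6.23, 6.35, 6.61 and 6.30. Of the 9 light chain and binding protein genes, 7 lay below 0 at 5 h without EPS and all 9 after EPS, with medians of -0.21 and -0.36. The lowest was Myl3 without EPS, at -0.51, a dim probe with signals of 100.3 to 151.7, and Mybpc1 after EPS, at -0.57. Mybph, which encodes a myosin binding protein of developing fibres, had levels of 6.31, 6.10, 6.45 and 6.13. The kinase gene Mylk2, whose product phosphorylates the regulatory light chain, differed by -0.002 and -0.18.

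Of the 39 genes, 13 had a mean level of at least 6, and bright genes in general had medians away from 0. The 406 other genes with a mean level of at least 6 had a median EPS difference of 0.16 at 0 min and -0.16 at 5 h, and a median time difference of 0.08 without and -0.27 after EPS. Each difference was therefore also taken relative to the median of other genes in the same of 5 ranges of mean level, a setting chosen after seeing the data. On that scale the EPS comparisons lost their common direction, with 22 of 39 members above and 17 below at 0 min and 19 above and 20 below at 5 h. In the time comparisons 35 of 39 lay below genes of like brightness without EPS and 36 of 39 after EPS, with a median of -0.28 in both. Below them in both comparisons were 33 of 39 members (84.6%), against 40.1% of all genes. Without the brightness step, median scaling moved the median of all genes by 0.13 without EPS and by 0.18 after EPS, to 0.11 and 0.10; against those, the members' medians were -0.08 and -0.18, with 23 and 36 of 39 below 0.

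**Figure D2:**
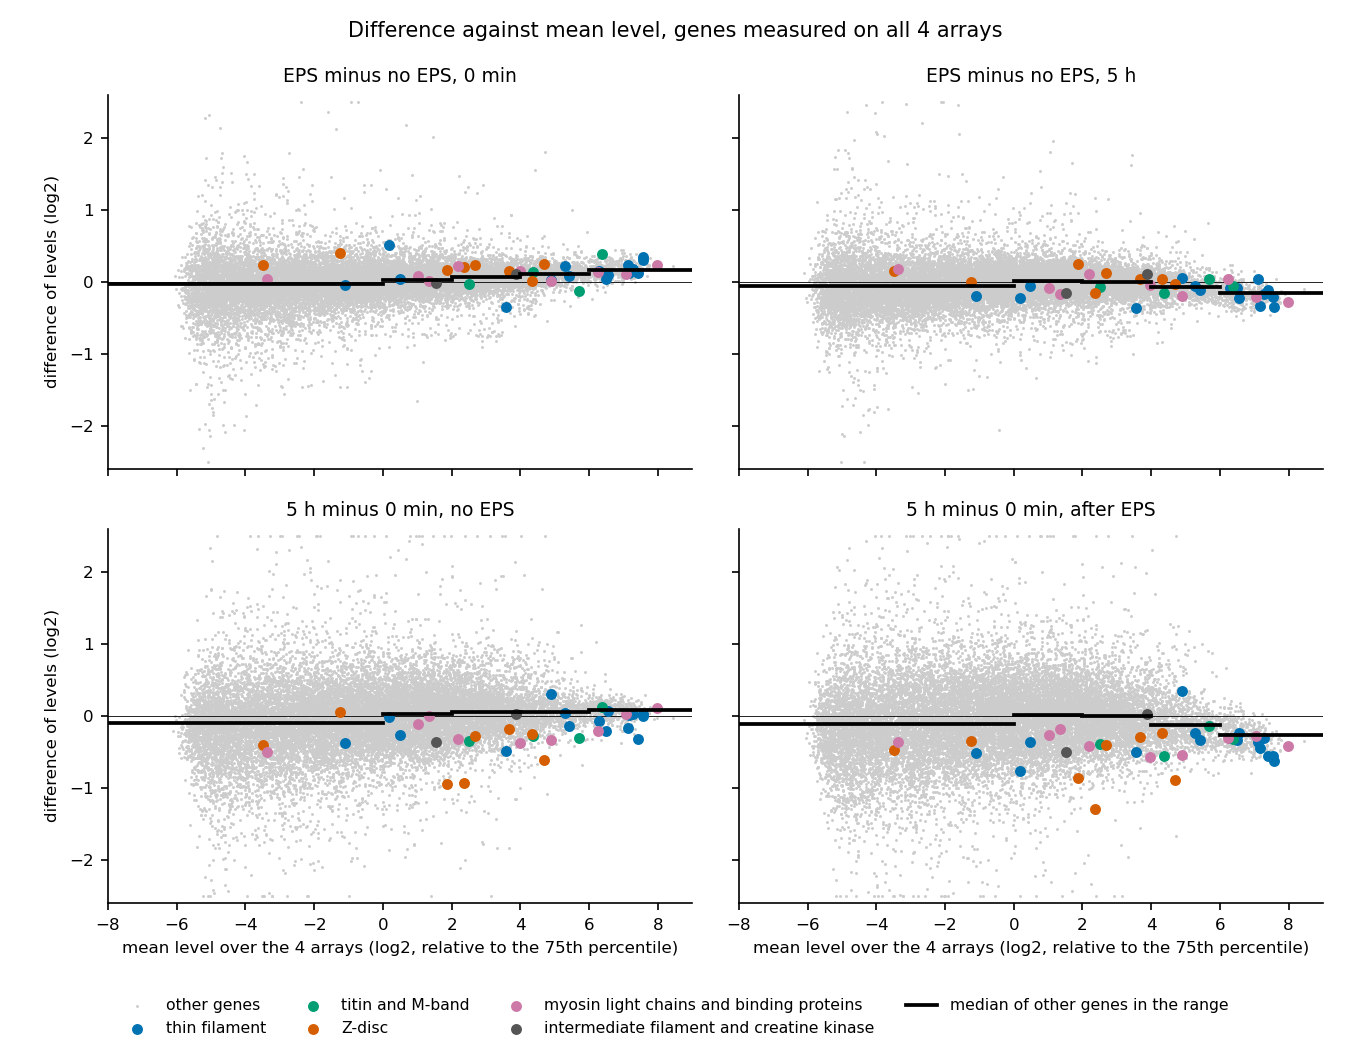
Difference of levels (log2, vertical axes) against the mean level over the 4 arrays (log2 relative to the 75th percentile) for 18107 genes in the 4 comparisons; coloured points are the 39 genes by role, grey points the other genes (drawn at 2.5 where beyond it), and black bars the medians of the other genes in 5 ranges of mean level. In the lower panels, 35 and 36 of 39 coloured points lie below the black bars.

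Directly after stimulation, differences between stimulated and unstimulated tissue were small: 0 of 39 members reached 2-fold, where 1.34% of all genes did, and 0 reached 1.5-fold, where 5.35% did. Above 0 were 34 of 39 members (87.2%), where 54.5% of all genes were, with a median of 0.13 against 0.02 over all genes. But 20 were above 0 under quantile normalization and 23 under cyclic loess, where the medians were 0.01 and 0.02. The highest was Tmod4, at 0.51, followed by Myoz1 at 0.40 and Myom2 at 0.38, and these kept their sign under the 5 other scalings. Myoz1, the fast fibre calsarcin, had levels of -1.37, -1.32, -0.97 and -1.32, so the array of EPS at 0 min stood above the other 3. The lowest were Neb at -0.35, Ttn at -0.13 and Lmod2 at -0.05, also of 1 sign under all of these scalings. All 8 Z-disc genes were above 0, with a median of 0.22, and 7 of 8 were above genes of like brightness, the exception being Actn3. Myoz3 is counted there at 0.23 by its brightest probe, while its other probe gave -0.55.

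At 5 h, 0 of 39 members differed 2-fold between stimulated and unstimulated tissue, where 1.21% of all genes did, and 0 differed 1.5-fold, where 5.02% did. The median was -0.09 against -0.03 over all genes, but it was 0.00 under quantile normalization and -0.02 under cyclic loess. Below 0 were 27 of 39 members (69.2%), where 56.6% of all genes were. The highest were Ldb3 at 0.24, Myl3 at 0.18 and Myoz3 at 0.15. The other probe of Ldb3 gave -0.02 and that of Myoz3 -0.32, and Myl3 was at 0.004 with normexp background correction. The lowest were Neb at -0.37, Tnnc2 at -0.35 and Tpm1 at -0.33. Tpm1, which encodes the alpha-tropomyosin of striated muscle among other forms, had levels of 7.22, 7.23, 7.34 and 6.90 at its brightest probe. There only the array of EPS at 5 h was low. The other Tpm1 probes gave -0.37, -0.19, -0.08 and 0.003, and the first of these overlaps the brightest probe in position.

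Taken over both EPS comparisons, which share no array, 11 members (28.2%) were above 0 in both, where 28.5% of all genes were, and 4 (10.3%) below in both, where 30.3% of all genes were. The 4 were Ckm, Lmod2, Myom1 and Neb. Relative to genes of like brightness the counts were 12 above and 10 below in both. Neb was the lowest member at both times, and it was lower with EPS by 1.28-fold at 0 min and 1.29-fold at 5 h. The paired differences had a Pearson's r of 0.09 and a Spearman's rho of 0.08 over the 39 genes, against an r of 0.28 over all genes. Des was higher with EPS by 0.10 at both times, and its spots at 0 min ran from 3.75 to 3.88 without and from 3.89 to 3.96 with EPS. At 5 h its spots overlapped. These spots repeat 1 array per group and do not stand for separate tissues. The Des difference at 0 min was 0.04 under quantile normalization, 0.02 under cyclic loess and 0.04 relative to genes of like brightness. At 5 h these were 0.11, 0.14 and 0.10.

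The EPS difference at 5 h minus that at 0 min reached 2-fold in 0 of 39 members, where 1.99% of all genes did. It reached 1.5-fold in 2 of 39, where 7.37% of all genes did: Tmod4 at -0.74 and Tnnc2 at -0.65. The spot error of this difference had a 95th percentile of 0.39, or 0.145 for bright probes. Tnnc2, which encodes fast skeletal troponin C, had levels of 7.56, 7.59, 7.87 and 7.24 at chr2:164602661-164602720. It was thus highest with EPS at 0 min and lowest with EPS at 5 h, while the unstimulated arrays differed by 0.03. The size of this value changed with scaling, to -0.22 under quantile normalization and -0.38 under cyclic loess, whereas Tmod4 stayed between -0.68 and -0.74. The stimulated arrays that give this difference also give the time difference after EPS, so the Tmod4 and Tnnc2 values in both are not independent.

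**Figure D3:**
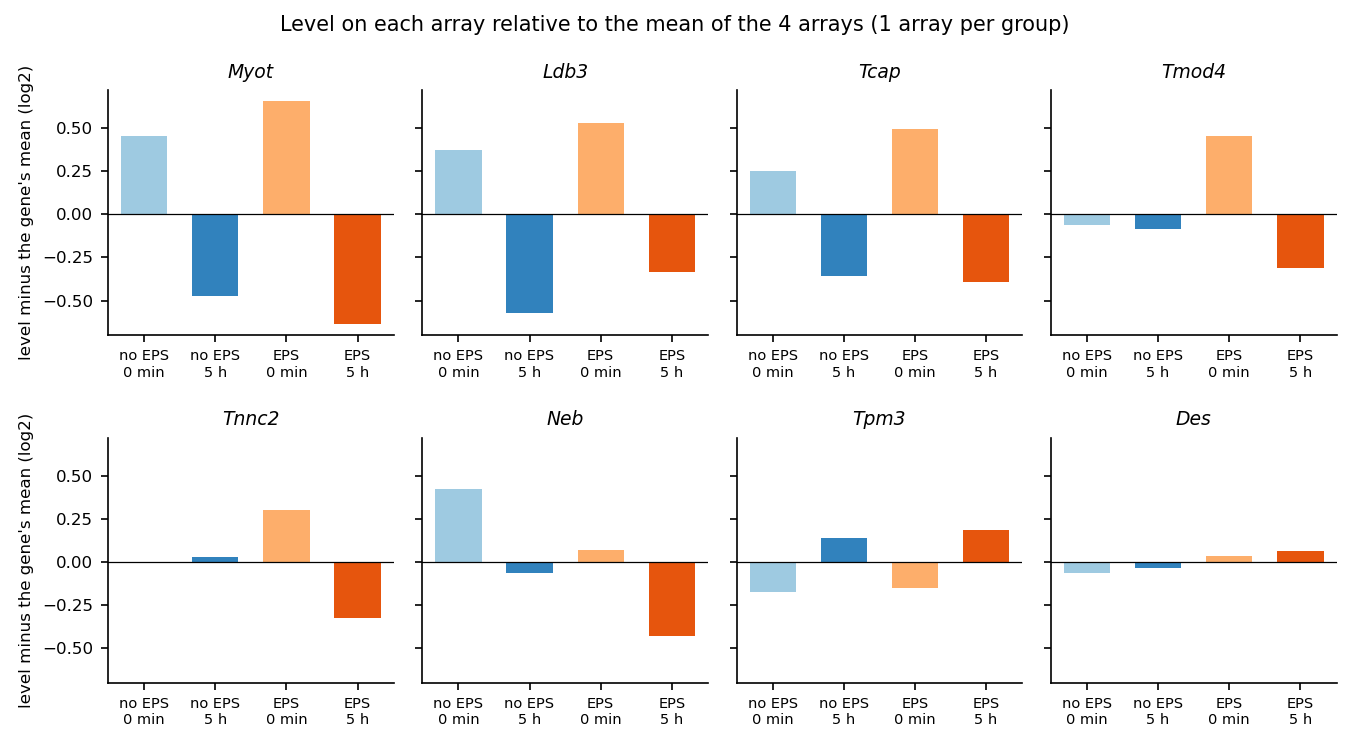
Level on each of the 4 arrays minus the gene's mean over them (log2, vertical axes; 1 array per group, so no error bars) for the 3 Z-disc genes with the largest time differences and for Tmod4, Tnnc2, Neb, Tpm3 and Des. Myot, Ldb3 and Tcap are above their mean on both 0 min arrays and below it on both 5 h arrays, whereas Tmod4 and Tnnc2 stand out on the arrays of EPS.

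Slow, fast and embryonic isoforms were compared as the difference of each, not by their levels, since levels of different probes cannot be set against each other. The time difference without EPS had a median of -0.20 over the 8 slow, -0.04 over the 10 fast and 0.07 over the 3 embryonic or cardiac genes. After EPS it was -0.32, -0.33 and -0.42. Relative to genes of like brightness the medians were -0.265, -0.11 and -0.01 without EPS. After EPS they were -0.18, -0.25 and -0.15 on that scale, so the embryonic or cardiac median was no longer the lowest. The fast median without EPS changed sign under median scaling (0.10). The embryonic one without EPS was also below 0 under quantile normalization (-0.01) and cyclic loess (-0.03). After EPS the embryonic median changed sign under quantile normalization (0.02). For EPS at 0 min the medians were 0.09, 0.18 and 0.12, the last being -0.07 under quantile normalization and -0.05 under cyclic loess. At 5 h they were -0.06, -0.09 and -0.22, and under quantile normalization 0.03, 0.03 and 0.00. Relative to genes of like brightness the medians at 5 h were 0.03, 0.003 and -0.06. In 11 pairs from 9 protein families, the slow or embryonic member had the higher EPS difference in 3 pairs at 0 min and 5 pairs at 5 h. It had the higher time difference in 4 pairs with or without EPS. Actn2, of all striated muscle, was counted there as the slow partner of Actn3, and had the higher EPS difference at both times. Tnnt3 and Myl1 recur among the pairs, which are thus not independent. Among the 8 slow genes, Tpm3 was read by its downstream probe, at 0.31 without EPS and 0.34 after EPS with time. Its internal probe gave -0.35 and -0.44.

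Each of the 3 troponin subunits has slow and fast forms. Slow troponin I (Tnni1) had levels of 6.62, 6.40, 6.65 and 6.32, and fast troponin I (Tnni2) 7.53, 7.53, 7.87 and 7.31. At 0 min the EPS difference was 0.34 for the fast and 0.03 for the slow form, beside the median of 0.16 for other bright genes. It was 0.12 and -0.15 under quantile normalization, 0.17 and -0.11 under cyclic loess, and 0.17 and -0.13 relative to genes of like brightness. Slow and cardiac troponin C (Tnnc1) had levels of 5.23, 5.27, 5.45 and 5.21. With EPS at 5 h Tnnc1 differed by -0.06 and its fast partner Tnnc2 by -0.35. The time difference after EPS was -0.24 for Tnnc1 and -0.62 for Tnnc2, and -0.33 for Tnni1 and -0.56 for Tnni2; relative to genes of like brightness these were -0.11, -0.35, -0.06 and -0.29. In this comparison the fast form was the lower of each pair under all 6 scalings. Without EPS the time differences were 0.04 for Tnnc1 and 0.03 for Tnnc2, and -0.22 for Tnni1 and -0.003 for Tnni2. The array of EPS at 0 min enters both the time difference after EPS and the EPS difference at 0 min, so these are not independent. For troponin T, the slow Tnnt1 had levels of 7.27, 7.30, 7.44 and 7.13, the fast Tnnt3 of 6.31, 6.24, 6.46 and 6.15, and the cardiac and embryonic Tnnt2 of 6.54, 6.61, 6.63 and 6.39. Their time differences after EPS were -0.31, -0.31 and -0.24. These lay closer to each other than 0.11, the 95th percentile of the spot error for bright probes. The time difference of Tnnt2 after EPS was 0.02 under quantile normalization and 0.03 relative to genes of like brightness. Tnni1 and Tnnt2 are neighbours on chromosome 1, with probes 41.8 kb apart, and Tnni2 and Tnnt3 on chromosome 7, 68.2 kb apart. At 0 min the EPS differences were 0.03 for Tnni1 beside 0.09 for Tnnt2, and 0.34 for Tnni2 beside 0.15 for Tnnt3.

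Among the light chains, Myl4, the embryonic and atrial essential light chain, had levels of 7.94, 8.04, 8.18 and 7.76, and the fast Myl1 of 7.07, 7.11, 7.18 and 6.89. Both were highest with EPS at 0 min and lowest with EPS at 5 h. The 406 other bright genes had medians of 0.16 and -0.16 for EPS, and of -0.27 with time after EPS. Relative to those, the time differences after EPS were -0.15 for Myl4 and -0.01 for Myl1. Under quantile normalization they were 0.05 and 0.04. That scaling gives a probe of unchanged rank equal values on the arrays, so it tells little about the brightest probes. The slow essential light chain gene Myl3 had levels of -3.17, -3.67, -3.13 and -3.50 and was lower on both 5 h arrays. Of the regulatory light chains, the slow Myl2 had levels of 5.11, 4.77, 5.12 and 4.57 and the fast Mylpf of 1.09, 0.98, 1.16 and 0.90. Myl2 was the lower of the pair with time, at -0.34 against -0.11 without EPS and -0.54 against -0.27 after EPS. The slow binding protein gene Mybpc1 had levels of 4.14, 3.76, 4.29 and 3.71 and its fast partner Mybpc2 of 2.26, 1.94, 2.48 and 2.05, both lower at 5 h throughout. In the Z-disc, the fast Actn3 had levels of 4.44, 4.19, 4.45 and 4.22, and its differences with EPS were 0.01 and 0.03. Myoz3, dim on every array, had levels of -3.38, -3.78, -3.16 and -3.63.

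**Figure D4:**
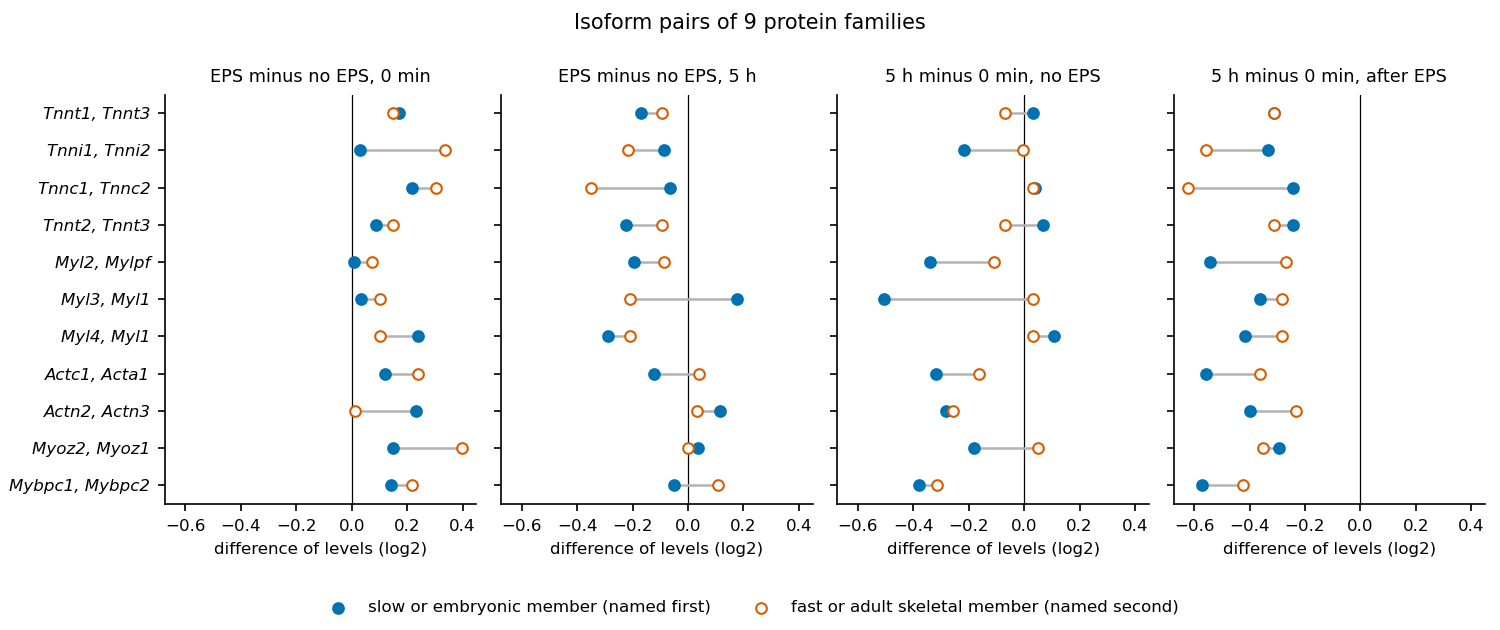
Difference of levels (log2, horizontal axes) for 11 isoform pairs of 9 families in the 4 comparisons, with the slow or embryonic member as a filled blue point, the fast or adult skeletal member as an open orange point, and a grey line joining them. Neither kind lies consistently to one side: the filled point is the higher in 3, 5, 4 and 4 of 11 pairs. Actn2, of all striated muscle, is drawn as the filled point beside Actn3.

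In 10 members several probes read the same gene, and for some the value depended on the part read. Tpm3 differed most: the downstream probe was higher at 5 h by 0.31 without EPS and 0.34 after EPS, whereas the internal probe shown above was lower by 0.35 and 0.44 on the log2 scale. The tropomyosin genes have alternative promoters and exons, and the Tpm3 value therefore holds for 1 part of the gene. Along titin, from 5′ to 3′ over 260.5 kb, the time differences without EPS were -0.23, -0.46, -0.45 and -0.31, all of 1 sign. The same probes gave EPS differences of 0.07, -0.30, -0.12 and -0.13 at 0 min, and of -0.05, -0.39, -0.13 and 0.04 at 5 h. The second probe was thus the lowest of the 4 in each of these comparisons. The 5′ nebulin probe, 104.7 kb from the 3′ probe, gave the EPS differences of -0.35 and -0.37 quoted above, and the 3′ probe gave -0.17 and -0.02. Both nebulin probes were lower with time, at -0.48 and -0.35 without EPS.

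The Ldb3 probes, 34.5 kb apart, were lower at 5 h in both comparisons, at -0.94 and -0.53 without EPS and at -0.86 and -0.67 after EPS. Of the 5 Tpm1 probes, the brightest pair, which overlap in position, differed by 0.01 and 0.03 with time without EPS. The others differed by -0.42, -0.23 and, for the dimmest, -0.48. The Myoz3 probes went opposite ways for EPS at 0 min, at 0.23 and -0.55, both with signals of at most 130.7. Among all 223 genes with probes at least 50 kb apart, the 5′ minus the 3′ probe had a median EPS difference of -0.07 at 0 min and -0.16 at 5 h, and a median time difference of 0.08 without and -0.01 after EPS.

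**Figure D5:**
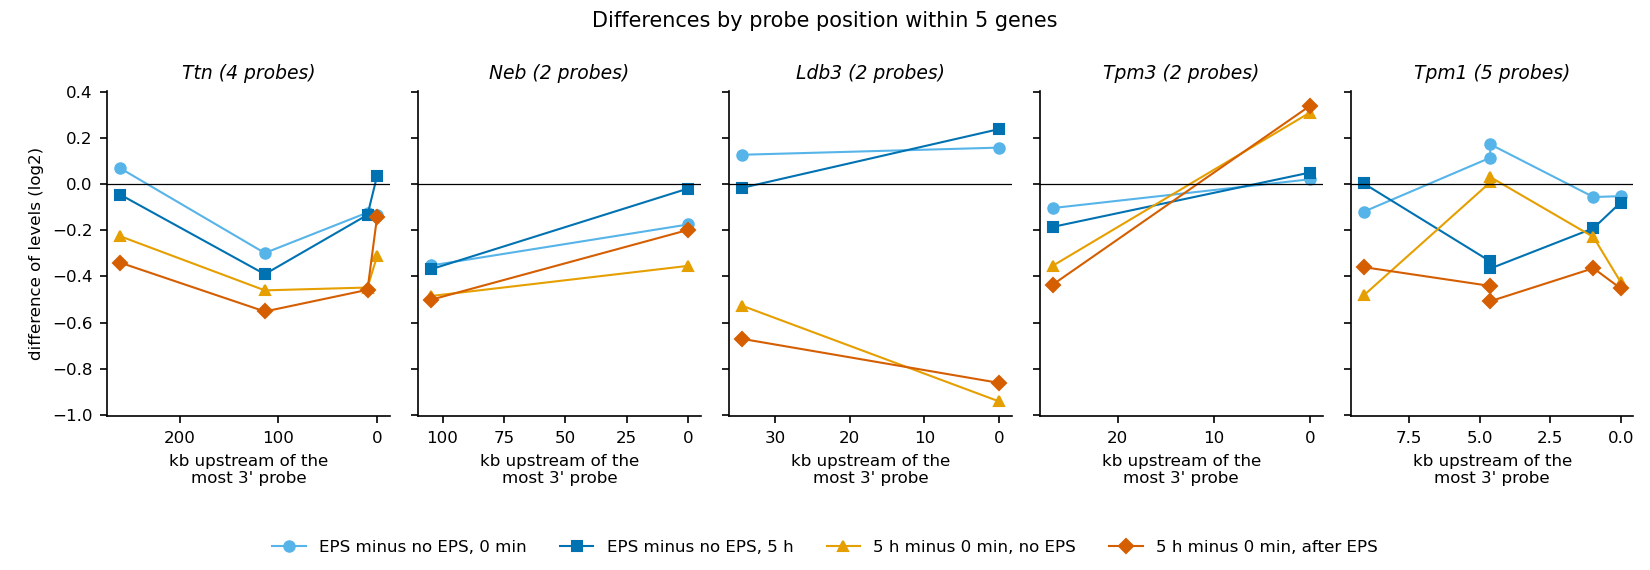
Difference of levels (log2, vertical axis) of each probe of Ttn, Neb, Ldb3, Tpm3 and Tpm1 against its distance in kb upstream of the most 3′ probe (horizontal axes, 5′ to the left); colours and symbols are the 4 comparisons, and lines only join probes of a comparison. The Tpm3 probes have opposite signs with time, at -0.35 and 0.31 without EPS, while the 4 Ttn probes lie below 0 in both time comparisons.

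The promoters of 29 members were found by symbol in RefSeq's promoter table (34 promoters, build GRCm38.p6), and the 250 bases before each start were searched on both strands. The CArG box, the motif bound by serum response factor, was present in 5 of these 29 genes: Acta1, Actc1, Ldb3, Myl3 and Myom1. That is 17.6% of the member promoters, against 1.47% of all 32851 promoters of the table over the same length, and it counts the box of Ldb3 in 2 overlapping promoters. The E-box CANNTG, the letters bound by myogenic factors, was in 85.3% against 66.2%, CATTCC in 26.5% against 12.6%, TATAAA in 14.7% against 12.4%, and the MEF2 site in 8.82% against 2.92%. These are matches of letters, not shown to be bound. All 5 genes with a CArG box were lower at 5 h in both time comparisons, as were 28 of all 39 members. The promoters of 3 are printed with the box in capitals, and none of these boxes overlaps another of the motifs. They lie at chr8:123894776-123895025 (Acta1), chr2:114052876-114053125 (Actc1) and chr14:34588682-34588931 (Ldb3), all on the minus strand, and the box begins 73, 47 and 35 bases before the start.
Acta1 promoter: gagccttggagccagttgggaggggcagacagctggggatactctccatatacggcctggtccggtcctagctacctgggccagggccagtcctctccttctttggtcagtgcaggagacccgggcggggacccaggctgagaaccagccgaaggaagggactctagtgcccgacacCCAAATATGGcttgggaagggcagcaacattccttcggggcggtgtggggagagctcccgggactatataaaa
Actc1 promoter: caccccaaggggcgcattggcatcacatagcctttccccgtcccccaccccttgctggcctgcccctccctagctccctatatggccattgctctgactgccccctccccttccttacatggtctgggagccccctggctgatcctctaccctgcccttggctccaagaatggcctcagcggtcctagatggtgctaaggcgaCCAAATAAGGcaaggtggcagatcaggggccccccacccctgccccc
Ldb3 promoter: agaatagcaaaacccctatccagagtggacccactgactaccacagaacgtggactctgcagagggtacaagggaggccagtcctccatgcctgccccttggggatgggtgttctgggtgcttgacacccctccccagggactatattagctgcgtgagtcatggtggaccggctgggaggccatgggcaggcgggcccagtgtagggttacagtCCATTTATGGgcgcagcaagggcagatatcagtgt

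Other genes of the sarcomere and Z-disc, 31 of 33 of them measured, had medians of -0.19 with time without EPS and -0.38 after EPS, below 0 in 24 and 27 of 31. At least 1.5-fold lower were 4 of 31 without EPS (Fhl2, Palld, Synpo2 and Fbxo32), where 9.38% of all genes were, and 6 of 31 after EPS, where 12.5% were. The lowest was Fhl2, which encodes a LIM domain protein of the sarcomere, at -0.94 and -1.35. For EPS their medians were 0.07 at 0 min and 0.01 at 5 h. At 0 min 1 gene was 1.5-fold higher, where 2.01% of all genes were, the mitochondrial creatine kinase gene Ckmt2 at 0.61. With EPS at 5 h 1 gene was 1.5-fold lower, where 2.96% of all genes were, Tnni3 at -0.61. With time without EPS 1 gene was 1.5-fold higher, where 6.6% of all genes were, Trim54 at 0.585. Non-muscle relatives of the members, 13 of 14 measured, had time medians of -0.18 and -0.30, and smooth muscle actin (Acta2) was the lowest of these at -0.69 and -0.82.

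Markers of other cell types also had lower medians at 5 h. The 9 of 10 fibroblast markers measured had medians of -0.13 without EPS and -0.62 after EPS. Their summed signals over the list were 389780 to 441756 at 0 min and 379430 to 381005 at 5 h. Thy1 was above background on none of the arrays. Summed signals here and below are not scaled, and the 75th percentiles ran from 1093.0 (EPS at 0 min) to 1491.9 (EPS at 5 h). The sums of different arrays therefore cannot be compared as the scaled medians can. The 4 of 6 smooth muscle markers measured had time medians of -0.62 and -0.74, with summed signals of 92836 to 114207 at 0 min and 66696 to 71608 at 5 h, and Myh11 was above background on none. Skeletal fibre markers had time medians of -0.19 and -0.32, 10 and 11 of 12 below 0. The part that these cell types have in the members' time differences was not tested.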

How the data were processed

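The authors deposited 1 intensity per spot and array, background-corrected by Agilent's Feature Extraction software, version 10.7.3.1, per the file headers. In the series' own table the deposited intensities are the same (43020 of 43020 spots that are not controls, within a relative tolerance of 0.0001), so that table is linear and neither scaled nor centred. Probe positions are those of the array design on mm9, per the file headers. Each array's log2 signals were scaled to its 75th percentile; spots with an outlier flag were left out, spots of a probe averaged, and a gene was read by its brightest probe. A gene was measured if well above background (over 0.5 of its spots) on each of the 2 arrays of a comparison, and on all 4 where EPS effects at both times were subtracted. Files were analysed with Python 3.11.15 and, for normexp (offset 50), quantile and cyclic loess, with limma 3.58.1 in R 4.3.3. With 1 array a group no test was run, and sizes of 2-fold and 1.5-fold stood in for one; an additive fit of EPS and time was not made. The number of arrays limits the precision, and p-values were not computed.

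The members, gene lists and rules were chosen with earlier results of these data known. Named with values on all arrays were members past 1.5-fold, the 3 highest and 3 lowest in each EPS comparison, isoform partners, and members whose probes disagreed; from other lists, genes past 2-fold and at most 2 with the largest difference. Genes behind a count of at most 5 and markers below background were named after their values were seen. The other members are described by choice after their values were seen. Alternatives were other background correction, scaling, dim-probe filters, probe averaging, outlier flags, the value table and the size of the fold. Cyclic loess and the brightness-relative difference were chosen after seeing the data.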

Additional observations from a re-analysis of the deposited data

Results flagged for a closer look

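Tnnc2, fast skeletal troponin C, went opposite ways in the EPS comparisons, at 0.30 for 0 min and -0.35 for 5 h, each just larger than the 95th percentile, over probes printed 10 times, of the standard deviation between spots (0.29 and 0.30). Under quantile normalization the values were 0.08 and -0.14, and relative to genes of like brightness 0.14 and -0.19. All of them were smaller than 0.29. For bright probes, with a level of at least 2 as Tnnc2 had, the same percentile was 0.10 in both comparisons. Only the value of 0.08 was smaller than 0.10. The EPS difference of Tnnc2 at 5 h minus that at 0 min was -0.65. The difference was not tested, since each group has 1 array. Among the 406 bright genes that are not members the same quantity had a median of -0.32, and relative to it the value for Tnnc2 was -0.33.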

How the results depend on the processing

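Over all settings, 275 values of counts and list medians stayed within the limit set by spot error or count, and 5 moved. With a 1.5-fold in place of a 2-fold rule the number of members past it was 3 for time without EPS, 5 for time after EPS and 2 for the difference of EPS effects. The median time difference after EPS of the embryonic and cardiac isoforms, -0.42 as reported, was 0.022 under quantile normalization and -0.15 relative to genes of like brightness. Of the values for single genes 1265 stayed and 22 moved, of these 18 in the time comparison after EPS and 4 in the difference of EPS effects, under quantile normalization or relative to genes of like brightness. No called value changed sign. Myot was past 2-fold after EPS under every setting that was run. Tcap was below 1.5-fold without EPS under median scaling, Tmod4 after EPS under median scaling, and Tnnc2 after EPS under quantile normalization, cyclic loess, median scaling and the brightness-relative difference. No paired analysis was possible because each group has 1 array and the labels give no replicate numbers, and no array could be left out for the same reason. Signal over background limits Myl3 and Myoz3 most.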

Other observations

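Genes of the marker lists for other cell types that were past 2-fold were mostly lower at 5 h. Myh6, the alpha cardiac myosin heavy chain, differed with time by -1.53 without EPS and -1.58 after EPS, and Pdgfrb, a growth factor receptor of fibroblasts and pericytes, by -1.77 and -2.43. Tagln, an actin-binding protein of smooth muscle, differed by -0.56 and -1.12. Tubb3, a neuronal tubulin, was higher at 5 h, at 0.88 and 1.05. Pax7, a satellite cell factor, differed by -1.30 without EPS, with signals of 25.3 to 66.3. Cd68, a macrophage gene, differed by -1.84 without EPS and by -1.33 with EPS at 0 min, with signals of 27.7 to 105.6. Nefl, a neurofilament gene, differed by -3.01 without EPS and was above background on 3 arrays. The values carry no test.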
